A study of Rattus norvegicus with 20 samples.

Results

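Parvalbumin (Pvalb), calbindin (Calb1) and calretinin (Calb2) are 3 cytosolic calcium buffers, and their messenger RNA was followed here in rat globular bushy cells during maturation. The members are the probe sets whose platform annotation names exactly 1 gene with the symbol Pvalb, Calb1 or Calb2. There is 1 such probe set per gene, 3 of the 31099 probe sets on the array (1370214_at for Pvalb, 1370201_at for Calb1 and 1387133_at for Calb2). The cells were taken from the brain of Sprague Dawley rats at postnatal day 3 (P3, just after the calyx of Held forms), day 8 (P8, a juvenile stage close to hearing onset) and day 21 (P21, a mature calyx). Every animal had been injected 24 hours before sacrifice with the retrograde tracer Cholera toxin B, placed in the medial nucleus of the trapezoid body of the opposite side. From each animal 200 labelled cells of the ventral cochlear nucleus were cut by laser microdissection out of frozen sections 12 µm thick and pooled, and their RNA was amplified in 2 rounds. The series has 6 arrays at P3, 9 at P8 and 5 at P21, each from a separate animal, with no untreated or untraced group.

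Globular bushy cells carry precisely timed sound signals from the cochlear nucleus to the opposite brainstem, where each axon ends in the giant calyx of Held terminal. Calcium that enters such a terminal during an action potential is bound within a short time by buffer proteins, which limit how far and how long it acts. All 3 proteins bind calcium through EF-hand loops: parvalbumin is a slow buffer because its sites are also occupied by magnesium, whereas calbindin and calretinin are faster buffers closely related to each other. Parvalbumin and calretinin are both known from calyx terminals of rodents, and calbindin is best known from other neurons such as Purkinje cells.

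Pvalb lies on the minus strand of chromosome 7. The 250 bases before its start in the RefSeq promoter table (build GRCr8, chr7:111666290-111666539, minus strand) are shown because it is the 1 gene of the 3 matched in that table. Capitals mark a GC box (GGGCGG) and 2 E-boxes (CANNTG), searched on both strands with no overlap between matches.
Pvalb promoter: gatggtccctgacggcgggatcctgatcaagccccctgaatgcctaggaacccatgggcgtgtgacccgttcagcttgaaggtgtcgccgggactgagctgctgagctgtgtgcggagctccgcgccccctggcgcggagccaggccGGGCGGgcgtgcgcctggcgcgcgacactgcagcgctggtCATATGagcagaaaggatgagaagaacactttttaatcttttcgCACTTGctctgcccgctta
Of these bases 62.8% are G or C, and the window holds 21 CpG dinucleotides. The GC box begins 103 bases before the start, and the E-boxes begin 63 and 19 bases before it. A GC box is found in 30.5% and an E-box in 65.5% of the 33469 windows of this length in the table. The letters TATAAA (in 12.9% of windows) and CCAAT (in 34.0%) are not in this window on either strand. These matches describe the sequence and are not evidence that a factor binds there.

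Levels below are log2(intensity + 1) from the deposited linear intensities, and a change is the difference of group means on that scale with its standard error (SE). P8 replicates 5 to 9 differed from every other library. The median intensity of an array was 58.9 to 67.5 among them and 23.8 to 32.5 among the remaining 15. Spike-in controls had a mean level of 7.06 ± 0.29 in P8 replicates 5 to 9 (SD, n = 5), and of 4.27 ± 0.14 in the other P8 animals (SD, n = 4). Changes are therefore given over P3, P8 replicates 1 to 4 and P21, and P8 replicates 5 to 9 are described apart. No detection calls were used, and a log2 level of 4, an intensity of 15, served as the limit of a dim signal. The excitatory identity of the cells was checked with 4 measured markers. Slc17a6, a vesicular glutamate transporter, had intensities of 2092.5 to 2375.5 at P3, 2529.0 to 3366.8 in P8 replicates 1 to 4 and 1989.5 to 2840.6 at P21. Hkdc1, a hexokinase relative on the same list, was low, at 22.5 to 34.4 at P21 and 24.0 to 42.6 at P3. Slc17a7, the vesicular glutamate transporter of many auditory excitatory terminals, was 113.9 to 432.4 at P3, 42.0 to 350.0 in P8 replicates 1 to 4 and 355.6 to 486.2 at P21. Syt2, a fast calcium sensor of vesicle release, was 4.9 to 28.2 at P3, 14.2 to 68.8 in P8 replicates 1 to 4 and 37.9 to 51.0 at P21. The mean of the 4 markers rose by 0.65 between P3 and P21 (exact permutation p = 0.00216, adjusted p = 0.0179 over 33 array tests), in the same direction as the 3 buffers.

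Parvalbumin mRNA was near the limit of a dim signal at P3 and high at P21. The P3 arrays had intensities with a lowest value of 2.2, a median of 13.6 and a highest value of 38.9. The arrays of P8 replicates 1, 2, 3 and 4 read 281.4, 24.5, 14.7 and 505.3. The P21 arrays read 789.9, 1093.5, 1066.0, 979.0 and 855.3, so that all 5 lay above every P3 and every P8 array. At P8 replicates 1 and 4 lay above all P3 arrays, while replicates 2 and 3 lay within the P3 range. The Pvalb level averaged 9.89 ± 0.20 at P21 (SD, n = 5) and 3.61 ± 1.51 at P3 (SD, n = 6). It rose by 6.28 ± 0.86 (SE; limma adjusted p = 3.54e-05). The size of this rise depends on the pseudocount, since 3 of 6 P3 arrays lay at or below the dim limit: with 16 added in place of 1 it was 4.99 ± 0.57 (adjusted p = 2.79e-06), and no fold change is given. All 3 buffer genes were called higher at P21 than at P3, where 22.6% of all genes tested were called higher.

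The steps of Pvalb were less firm than its rise over the whole span. From P3 to P8 it rose by 2.83 ± 0.91 (limma adjusted p = 0.0446), with the highest of P8 replicates 1 to 4 at 34.4 times the lowest in intensity. That call ended without any one of 11 of the 15 arrays (adjusted p = 0.0525 to 0.134), and it held without P3 replicate 3, P3 replicate 6, P8 replicate 2 or P8 replicate 3 (adjusted p = 0.0146 to 0.0394). The 11 include every P21 array, none of which enters the difference between P3 and P8. An exact permutation test of Pvalb alone gave p = 0.0667 for this step, and with a pseudocount of 16 the rise was 1.96 ± 0.61 (adjusted p = 0.0331). From P8 to P21 the rise was 3.45 ± 0.95 (adjusted p = 0.0185). Its call was lost without P8 replicate 2 or replicate 3 (adjusted p = 0.0636 and 0.0626). The spread between arrays was itself different by age, with an SD of 1.51 at P3 (n = 6), 2.49 in P8 replicates 1 to 4 (n = 4) and 0.20 at P21 (n = 5).

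**Figure D1:**
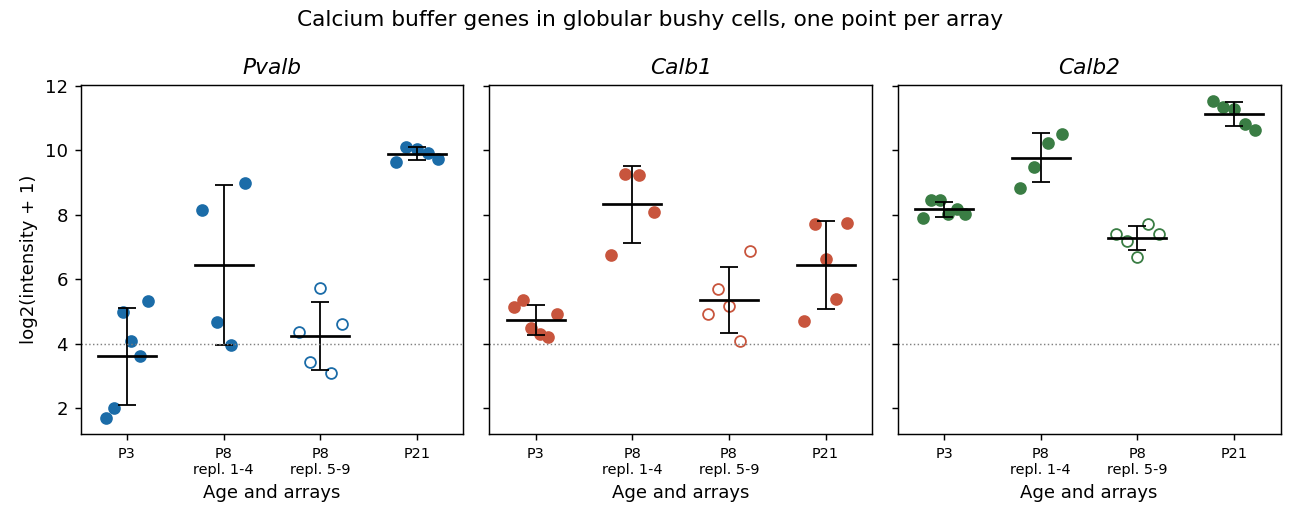
Levels of Pvalb, Calb1 and Calb2 as log2(intensity + 1) on the vertical axis, by age, with 1 point per array, the mean as a bar and the SD as whiskers. Open points are P8 replicates 5 to 9 and the dotted line is log2 4. Pvalb and Calb2 are highest at P21 and Calb1 is highest in P8 replicates 1 to 4.

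Calretinin mRNA was well measured at every age and stepped up at each one. The P3 arrays had intensities with a lowest value of 241.0, a median of 275.0 and a highest value of 352.8. P8 replicates 1 to 4 read 457.2, 711.3, 1212.7 and 1466.2. The P21 arrays read 2982.0, 2588.8, 2523.2, 1821.9 and 1595.3, and the 3 ages did not overlap. Calb2 averaged 11.13 ± 0.38 at P21 (SD, n = 5), against 8.18 ± 0.23 at P3 (SD, n = 6). The rise of 2.95 ± 0.27 (SE) is 7.75-fold, with a 95% interval of 5.24 to 11.5 (limma adjusted p = 7.18e-07).

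The steps of Calb2 were of similar size in both intervals. It rose by 1.59 ± 0.28 from P3 to P8 (adjusted p = 0.00199) and by 1.36 ± 0.29 from P8 to P21 (adjusted p = 0.00468). In all 15 fits that left out 1 array each, Calb2 stayed called in all 3 comparisons. The change between P3 and P21 then ran from 2.85 to 3.08. All 3 buffer genes were called higher at P8 than at P3, beside 9.32% of all genes tested. Pvalb and Calb2 were called higher at P21 than at P8, beside 9.71% of all genes tested.

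Calbindin mRNA behaved differently, with its highest levels at P8. The P3 arrays had intensities with a lowest value of 17.5, a median of 25.45 and a highest value of 39.9. P8 replicates 1 to 4 read 106.3, 620.5, 599.6 and 269.7, all above the P3 arrays. The P21 arrays read 25.3, 209.7, 98.8, 41.0 and 213.2, of which 4 lay above every P3 array, although replicate 4 did so by only a small margin. Calb1 averaged 8.33 ± 1.20 at P8 (SD, n = 4), against 4.74 ± 0.47 at P3 (SD, n = 6). It rose by 3.59 ± 0.60 (SE), which is 12.1-fold with a 95% interval of 4.98 to 29.3 (limma adjusted p = 0.00140). The P3 values lay not far above the dim limit, so this fold depends on the pseudocount. With 16 added in place of 1 the rise was 3.02 ± 0.49 (adjusted p = 6.44e-04).

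The later fall of Calb1 was less firm. It averaged 6.44 ± 1.36 at P21 (SD, n = 5), against 8.33 ± 1.20 at P8. The change of -1.89 ± 0.62 had an adjusted p of 0.0444, beside 10.1% of all genes tested that were called lower at P21 than at P8. At P21 3 of 5 arrays lay below all 4 P8 arrays, and replicates 2 and 5 lay within the P8 range. The call ended without any one of 12 of the 15 arrays (adjusted p = 0.0524 to 0.126), and it held without P8 replicate 1, P21 replicate 2 or P21 replicate 5 (adjusted p = 0.0129 to 0.0261). The 12 include every P3 array, none of which enters this difference. Without any one of them the change stayed at -1.89, and only the limma adjusted p moved (0.0524 to 0.0550). An exact permutation test of Calb1 alone gave p = 0.0794 for this step. Over the whole span Calb1 was 1.70 ± 0.56 higher at P21 than at P3 (adjusted p = 0.0236). That call was lost without P21 replicate 2 or replicate 5 (adjusted p = 0.0691 and 0.0674). With a pseudocount of 16 the difference was 1.34 ± 0.46 (limma adjusted p = 0.0250).

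**Figure D2:**
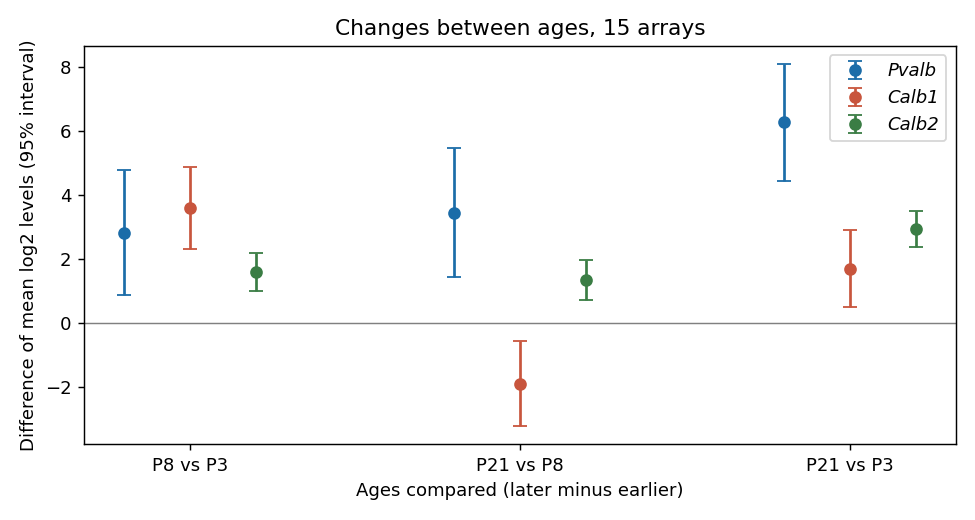
Difference of mean log2 levels between ages (later minus earlier) for Pvalb, Calb1 and Calb2 over 15 arrays, with 95% intervals from limma. Pvalb has the widest intervals, Calb2 the narrowest, and Calb1 is the member below 0 from P8 to P21.

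Whether the genes changed by different amounts was tested on the difference between a pair of genes within each array, which does not set the level of one probe set against another. There were 9 such comparisons, 3 pairs over 3 intervals, each with an exact two-sided permutation test and adjustment over the 9. Between P3 and P21 Pvalb rose by 3.32 more than Calb2 on the log2 scale (exact p = 0.00433, adjusted p = 0.0143) and by 4.57 more than Calb1 (exact p = 0.00216, the smallest this design allows, adjusted p = 0.0143). Between P3 and P8 Calb1 rose by 2.00 more than Calb2 (exact p = 0.00476, the smallest possible, adjusted p = 0.0143). In each of these 3 comparisons the arrays of the ages did not overlap. With a pseudocount of 16, which lessens the weight of the dim P3 values of Pvalb, its excess between P3 and P21 was 2.10 over Calb2 and 3.65 over Calb1 (exact permutation, adjusted p = 0.0195 each).

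From P8 to P21 Calb1 moved against both other genes. The change of Calb1 minus that of Calb2 was -3.25 (exact p = 0.0159, adjusted p = 0.0286), and Pvalb exceeded Calb1 by 5.34 (exact p = 0.00794, adjusted p = 0.0179). Leaving out 1 array ended the Calb1 and Calb2 call in 8 of 9 fits, all except that without P21 replicate 5 (adjusted p = 0.0514 to 0.0643). The Pvalb and Calb1 call ended without any one of P21 replicates 1 to 4 (adjusted p = 0.0514 each). For both pairs, the fits without 1 P21 array had 4 arrays at each age, which still did not overlap. Their exact p was therefore the smallest that so few arrays allow. The calls lost in those fits cannot be read as a smaller difference. The other 4 comparisons did not pass. Pvalb minus Calb2 changed by 1.24 from P3 to P8 and by 2.09 from P8 to P21 (exact permutation, adjusted p = 0.407 and 0.143). Calb1 minus Calb2 changed by -1.25 from P3 to P21 (exact permutation, adjusted p = 0.140, or 0.0429 without P21 replicate 5). Pvalb minus Calb1 changed by -0.77 from P3 to P8 (exact permutation, adjusted p = 0.705), and its sign turned without P8 replicate 2 or replicate 3 (0.14 and 0.36).

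The P8 animals differed among themselves in a way that was not shared by the 3 genes. Relative to the P3 mean, Pvalb was higher by 4.53, 1.06, 0.36 and 5.37 in P8 replicates 1, 2, 3 and 4. Calb1 was higher by 2.01, 4.54, 4.49 and 3.34 in the same order, so the arrays with the lowest Pvalb were those with the highest Calb1. Calb2 was higher by 0.66, 1.30, 2.07 and 2.34, an order that matched neither. With 4 arrays this is a description of these animals, and no test was made. Other measures also differed among them. The mean of the oligodendrocyte markers was 7.51, 8.42, 7.81 and 6.99 in replicates 1 to 4. The intensity of Slc17a7 was 165.6, 42.0, 49.8 and 350.0 there, a marker singled out after its values were seen. Replicates 1 and 4 were thus the higher arrays for both Slc17a7 and Pvalb, and the part of these measures in the Pvalb values was not tested.

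**Figure D3:**
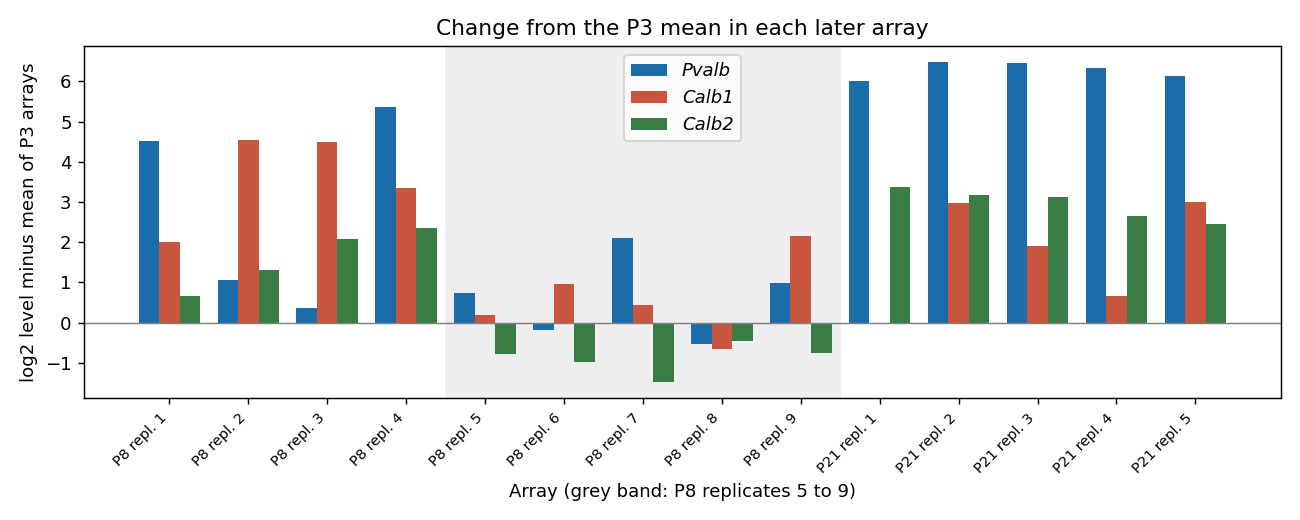
Log2 level minus the mean of the 6 P3 arrays, for each P8 and P21 array and each of Pvalb, Calb1 and Calb2; the grey band holds P8 replicates 5 to 9. In P8 replicates 2 and 3 the Calb1 bar is tall (4.54 and 4.49) and the Pvalb bar short (1.06 and 0.36), whereas Pvalb stands above 6 in all 5 P21 arrays.

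In the arrays set apart the rises were small or missing. P8 replicates 5 to 9 read 19.4, 9.7, 52.1, 7.5 and 23.4 for Pvalb, of which only replicate 7 lay above all P3 arrays. For Calb1 they read 29.5, 50.6, 35.1, 16.1 and 117.8, with replicates 6 and 9 above all P3 arrays. For Calb2 they read 168.6, 146.5, 102.9, 208.2 and 170.2, all below the lowest P3 array. Other measures were also different in these arrays. Slc17a6 had intensities of 653.2 to 2196.6 in P8 replicates 5 to 9 and 2529.0 to 3366.8 in P8 replicates 1 to 4. The other measured excitatory markers had higher medians in P8 replicates 5 to 9 than in replicates 1 to 4. Slc17a7 had 224.9 against 107.7, Hkdc1 62.1 against 27.35 and Syt2 63.1 against 48.05. The mean of the 4 markers was 7.42 ± 0.30 (SD, n = 5) against 7.08 ± 0.59 (SD, n = 4). The myelin gene Mbp had 195.4 to 550.9 in P8 replicates 5 to 9 and 1744.8 to 2584.1 in P8 replicates 1 to 4. Cnp separated too, at 434.8 to 708.3 against 997.1 to 1600.1, and Ermn nearly did (1.7 to 24.5 against 23.7 to 98.6). The other oligodendrocyte markers separated less. The mean of the 12 measured was 6.79 ± 0.41 (SD, n = 5) against 7.68 ± 0.60 (SD, n = 4), and these ranges overlapped. Mog and Mag overlapped between the 2 sets of arrays. Aspa and Ugt8 had higher medians in P8 replicates 5 to 9 (66.7 against 24.2, and 34.5 against 30.55). Summed astrocyte markers were 11335 to 25614 in P8 replicates 5 to 9 and 4051.4 to 6704.5 in P8 replicates 1 to 4. Most of that sum was Gja1 (7400.1 to 12931.2 against 1540.1 to 2218.0) and Aqp4 (2351.5 to 10966.3 against 885.3 to 2231.6). Slc1a2 was also higher without overlap. Gfap, Slc1a3, Aldh1l1, Gjb6 and Fgfr3 overlapped, and Fgfr3 had a lower median in P8 replicates 5 to 9 (301.3 against 440.7). The 3' minus 5' difference of beta-actin was 1.90 ± 0.72 (SD, n = 5) in P8 replicates 5 to 9 and 4.29 ± 0.19 (SD, n = 4) in P8 replicates 1 to 4. The part of these measures in the lower buffer values was not tested. With these arrays included, over 20 arrays, Calb1 was still called higher at P8 than at P3 (1.94 ± 0.71, adjusted p = 0.0481), beside 15.9% of all genes tested in that fit. Calb2 then differed by 0.21 ± 0.49 and Pvalb by 1.60 ± 0.79 for the same ages, and neither passed (adjusted p = 0.757 and 0.120). Calb1 changed by -0.24 ± 0.76 from P8 to P21 (adjusted p = 0.828), and its 1.70 ± 0.82 between P3 and P21 did not pass either (adjusted p = 0.187). The rises of Pvalb and Calb2 to P21 from either earlier age were called in both sets of arrays. In the fit of 20 arrays 10.6% of genes were called higher at P21 than at P8 and 7.36% higher at P21 than at P3.

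Other EF-hand calcium-binding protein genes changed in both directions between P3 and P21, as did the genes tested as a whole. The list held 38 genes for calmodulins, S100 proteins and neuronal calcium sensors, of which 32 were measured and 30 passed the filter on dim signals. Between P3 and P21 5 of these 30 rose, 8 fell and 17 did not pass. The median change was -0.02, against 0.04 over all genes tested, of which 22.6% were called higher and 20.5% lower. The calcium sensor Ncald (neurocalcin delta) averaged 7.91 ± 0.35 at P21 (SD, n = 5) and 9.63 ± 0.12 at P3 (SD, n = 6), and fell by 1.71 ± 0.16 (adjusted p = 8.92e-07). The related sensors Hpcal1 and Hpcal4 also fell, with changes of -1.63 ± 0.28 and -1.82 ± 0.32 (adjusted p = 3.12e-04 and 3.48e-04). Necab2, a neuronal calcium-binding protein, fell by 1.04 ± 0.16, and S100g, the calbindin of smaller size known from intestine, fell by 1.20 ± 0.24 to a dim 3.09 ± 0.45 at P21 (adjusted p = 1.17e-04 and 9.32e-04). The calmodulin relative Cabp1, a regulator of calcium channels, rose by 1.36 ± 0.23 (adjusted p = 2.17e-04).

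Over all 20 arrays 0 of these 30 genes passed upwards and 4 downwards between P3 and P21 (limma), beside 7.36% and 7.83% of all genes. Calmodulin itself, the ubiquitous calcium sensor, was measured through Calm2, named after its values were seen, and stood at 11.09 ± 0.16 at P21 (SD, n = 5) and 11.21 ± 0.13 at P3 (SD, n = 6), a difference of -0.11 ± 0.13 (adjusted p = 0.500). The other genes called higher were S100a1, S100b, Efhd2 and Ncs1, by 0.96, 0.75, 0.53 and 0.43. S100b is mainly a glial protein. All 3 buffers had larger rises than any of the 30 listed genes between these ages, while the falls of Ncald and Hpcal4 were of about the size of the rise of Calb1.

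**Figure D4:**
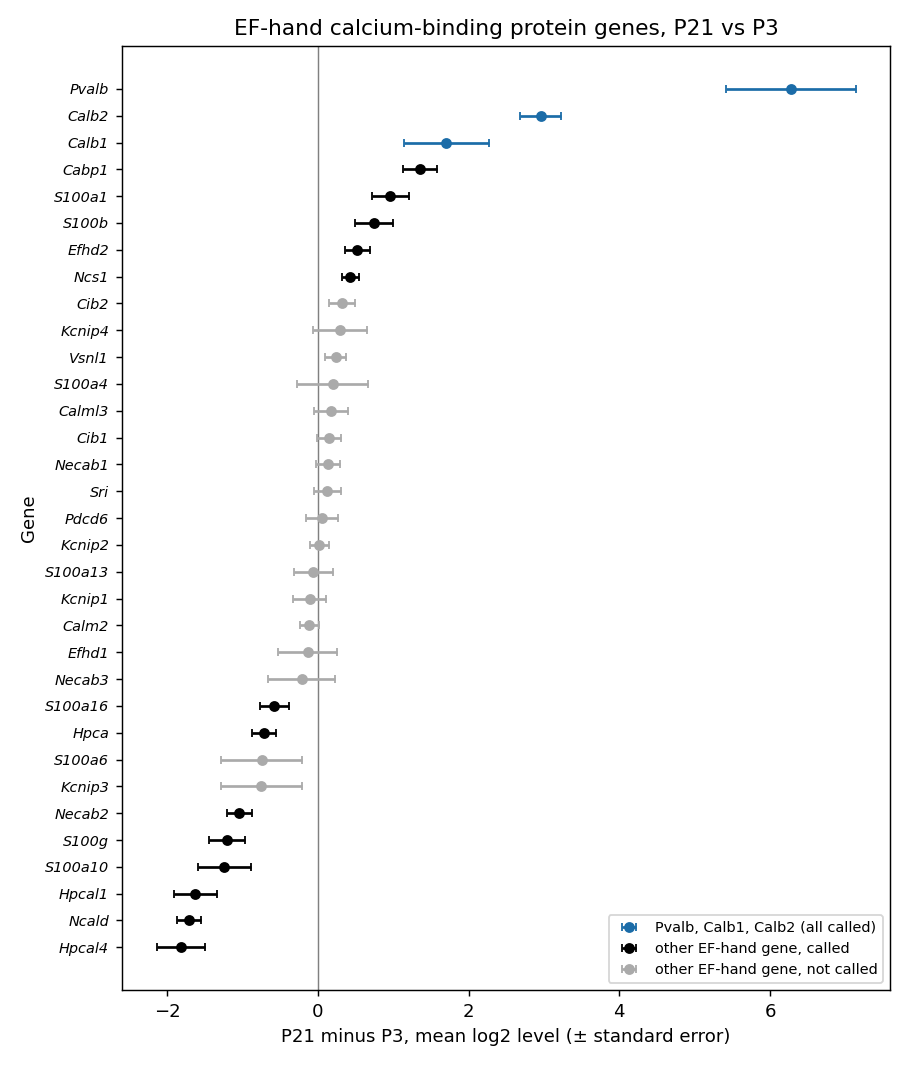
P21 minus P3 difference of mean log2 levels with its SE for Pvalb, Calb2 and Calb1 (blue) and 30 other EF-hand genes, black where called by limma and grey where not. The buffers lie at 6.28, 2.95 and 1.70, and the other genes run from -1.82 for Hpcal4 to 1.36 for Cabp1.

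The EF-hand list was also counted in each interval. From P3 to P8 2 of 30 rose, 0 fell and 28 did not pass. Over all genes 9.32% were called higher and 8.00% lower by limma. The 2 that rose were the calcium sensor Hpca (hippocalcin) and Kcnip1, an auxiliary subunit of Kv4 potassium channels. Their rises were 0.84 ± 0.17 and 0.91 ± 0.24 (adjusted p = 0.00386 and 0.0165). From P8 to P21 3 of 30 rose, 9 fell and 18 did not pass, with a median of -0.25 against 0.04 over all genes tested, of which 9.71% were called higher and 10.1% lower. Hpca, Ncald and Hpcal4 fell, with changes of -1.56 ± 0.17, -1.81 ± 0.18 and -2.19 ± 0.36 (adjusted p = 3.63e-05, 1.01e-05 and 6.42e-04). Hpcal1 and Necab2 fell too (-1.94 ± 0.31 and -1.12 ± 0.18), and Efhd2, an actin-binding EF-hand protein, rose by 0.79 ± 0.19 (adjusted p = 6.45e-04, 5.62e-04 and 0.00846). Kcnip1 fell in this step as well, by 1.02 ± 0.25 (adjusted p = 0.00901), so Hpca and Kcnip1 were each called upwards to P8 and downwards after it. Both steps share the P8 arrays.

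Genes for calcium binding inside the secretory pathway were mixed as well. Of 14 such genes, all measured, 3 rose, 4 fell and 7 did not pass between P3 and P21, with a median of 0.02. Over all genes 22.6% were called higher and 20.5% lower, so both counts lay close to the background. The reticulocalbin Rcn1 of the endoplasmic reticulum fell by 2.95 ± 0.26, and the Golgi protein gene Nucb1 (nucleobindin) rose by 1.46 ± 0.24 (adjusted p = 5.37e-07 and 2.27e-04). From P8 to P21 1 rose, 2 fell and 11 did not pass, and the falls were those of Rcn1 by 2.61 ± 0.29 and Nucb2 by 1.38 ± 0.37 (adjusted p = 2.86e-05 and 0.0155). From P3 to P8 the chaperone Hspa5 and the reticulocalbin Rcn2 rose by 0.65 ± 0.15 and 0.56 ± 0.18, 0 fell and 12 did not pass (limma adjusted p = 0.00788 and 0.0464). All genes were called higher in 9.32% and lower in 8.00% from P3 to P8, and in 9.71% and 10.1% from P8 to P21.

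The list of calcium pumps, exchangers and mitochondrial uptake held 22 genes, of which 20 were measured and 19 tested. Of these 19 8 rose, 4 fell and 7 did not pass between P3 and P21, with a median of 0.18, beside 22.6% and 20.5% over all genes. The potassium-dependent exchanger Slc24a2 rose by 2.40 ± 0.17 and Micu3, a regulator of the mitochondrial calcium uniporter, by 1.30 ± 0.13 (adjusted p = 7.23e-08 and 1.31e-06). From P3 to P8 6 rose, 2 fell and 11 did not pass, and from P8 to P21 4 rose, 4 fell and 11 did not pass. The shares over all genes were 9.32% higher and 8.00% lower in the earlier step, and 9.71% and 10.1% in the later one. Slc24a2 and Slc24a4 rose by 1.66 ± 0.18 and 1.01 ± 0.23 in the earlier step (adjusted p = 6.96e-05 and 0.00833). The exchanger Slc24a3 fell by 3.00 ± 0.26 and Micu3 rose by 0.73 ± 0.14 in the later one (adjusted p = 4.66e-06 and 0.00195).

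Genes with the most similar course to each buffer were found by the root mean square (RMS) difference of log2 levels over the 15 arrays, each gene centred on its own mean. For Pvalb the 6 nearest were Cox8b, Hapln4, Inhbb, Scn4b, Efemp1 and Dao, at RMS differences of 0.96 to 1.48 against a median of 3.02 over all genes tested. Cox8b encodes a cytochrome oxidase subunit, Hapln4 a link protein of perineuronal nets, Inhbb an inhibin subunit, Scn4b a sodium channel beta subunit, Efemp1 an extracellular matrix protein and Dao D-amino acid oxidase. Of these 6, Cox8b, Efemp1 and Dao had means below the dim limit at both P3 and P8, so no step between those ages can be read from them. Cox8b had means of 1.29, 2.68 and 7.09 at P3, P8 and P21.

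For Calb2 the nearest were closer, at RMS differences of 0.37 to 0.42 against a median of 1.39. They were Ncdn (neurochondrin), Efr3a, the nicotinic receptor modulator Lynx1, the kinase Nek7, Pip5kl1 and the sorting receptor Sorl1. Ncdn, the nearest, had means of 7.02, 8.66 and 10.19 at P3, P8 and P21. For Calb1 the nearest were Ctxn2 (cortexin 2), the protocadherin Pcdh20, Cit (citron kinase), the homeobox gene Hoxc4, Ifi27l2b and the lipase Pnlip, at 0.89 to 1.11 against a median of 1.77. All 6 had their highest mean at P8, as Calb1 did. Hoxc4 had means below the dim limit at both P3 and P21 (3.23 and 3.37), so the size of its rise and fall is uncertain. Ctxn2 was higher by 2.70 at P8 than at P3 and lower by 2.30 at P21 than at P8. These likenesses were ranked over the same arrays that show the courses and carry no test.

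**Figure D5:**
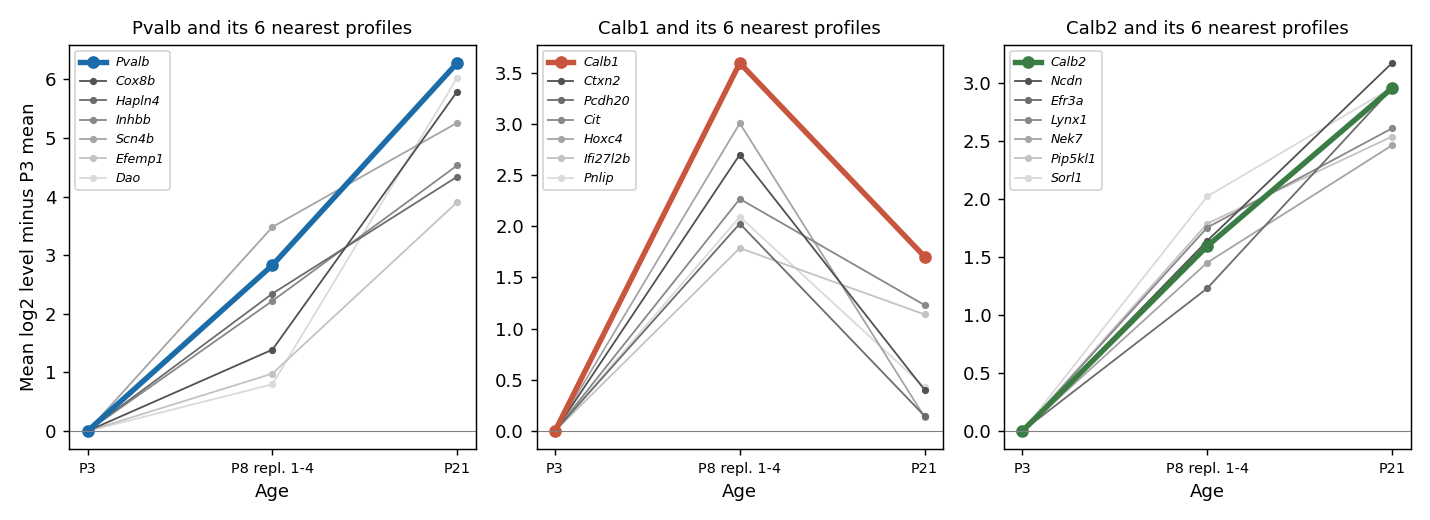
Mean log2 level at P3, P8 (replicates 1 to 4) and P21 minus the P3 mean, for each buffer (thick coloured line) and the 6 genes with the smallest RMS difference to it over 15 arrays (grey, darker for nearer). The genes near Calb2 climb at both steps and those near Calb1 are highest at P8. Near Pvalb, Cox8b, Efemp1 and Dao lie below log2 4 at both P3 and P8, and near Calb1, Hoxc4 does so at P3 and P21.

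Measures of RNA length and markers of other cells also moved with age. In bulk samples of pooled cells, more cells of a type and more RNA per cell cannot be told apart. For GAPDH the 3' control probe set exceeded the 5' one, a gap that is larger in shorter amplified RNA, by 3.99 ± 0.66 at P21 (SD, n = 5) and 2.91 ± 0.27 at P3 (SD, n = 6; exact permutation p = 0.00216, adjusted p = 0.0179 over 33 array tests). The same measure for beta-actin was 0.38 lower at P21 than at P3 (exact permutation p = 0.238, adjusted p = 0.393). Pvalb also marks inhibitory neurons elsewhere in the brain. The mean of their markers fell by 1.05 between P3 and P21 (exact permutation p = 0.00216, adjusted p = 0.0179). All 5 of these markers were measured, and their summed intensity was 840.9 to 1495.5 at P3, 457.7 to 1018.1 in P8 replicates 1 to 4 and 315.6 to 820.1 at P21. Slc6a5, the glycine transporter of glycinergic neurons, was at an intensity of 13.9 or less on all 15 arrays, while Gad1, for the enzyme that makes GABA, stood at 213.5 to 622.3 at P21.

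Calbindin marks Purkinje and cartwheel cells and calretinin marks unipolar brush cells, and both types lie near the sampled nucleus. The summed intensity of 6 measured Purkinje and cartwheel markers was 2048.8 to 2541.1 at P3, 2225.7 to 3007.0 in P8 replicates 1 to 4 and 1354.1 to 3310.8 at P21. Among them Pcp2 did not exceed 30.7 in P8 replicates 1 to 4, while Ppp1r17 was 62.2 to 156.8 in P8 replicates 1 to 4 and 3.8 to 41.9 at P3, higher on all 4 P8 arrays as was Calb1. Ppp1r17 was the only measured marker of this list that separated these ages. Pcp2, Pcp4, Car8, Rora and Itpr1 all overlapped, as with Car8 at 110.3 to 196.5 in P8 replicates 1 to 4 and 97.6 to 155.0 at P3. Most of the summed intensity was Pcp4, at 1753.1 to 2226.3 at P3 and 1076.2 to 2550.2 at P21. Between P3 and P21 Itpr1 rose without overlap (47.2 to 108.6, then 180.8 to 410.4), as Pvalb and Calb2 did. The other markers of the list overlapped between P3 and P21, with Ppp1r17 at 1.1 to 84.1 at P21. The mean of that list was 0.50 higher at P8 than at P3 (exact permutation p = 0.0238, adjusted p = 0.0982). Of 7 measured granule and unipolar brush cell markers, Eomes, which defines unipolar brush cells, was 3.4 to 56.3 at P21 and 18.3 to 85.6 at P3. Gabra6, a granule cell receptor subunit, was 42.5 to 1182.3 at P21 and 4.2 to 14.2 at P3. Pax6 went the other way, at 141.1 to 287.3 at P21 and 477.8 to 628.4 at P3. The mean of the list changed by -0.83 from P3 to P8 (exact permutation p = 0.00476, adjusted p = 0.0262). Between P3 and P21 it changed by -0.03 (exact permutation p = 0.939, adjusted p = 0.982). The 7 markers had summed intensities of 2047.1 to 2613.6 at P3, 990.2 to 1889.3 in P8 replicates 1 to 4 and 1505.6 to 3710.2 at P21.

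The mean of 12 oligodendrocyte markers rose by 3.30 between P3 and P21 and by 2.44 between P3 and P8 (exact permutation adjusted p = 0.0179 and 0.0262). Their summed intensity was 1041.6 to 2518.0 at P3, 5954.1 to 9601.2 in P8 replicates 1 to 4 and 7651.1 to 11208 at P21, and none of the 12 was dim on all 15 arrays. Astrocyte markers had summed intensities of 4364.1 to 9070.8 at P3, 4051.4 to 6704.5 in P8 replicates 1 to 4 and 4608.0 to 5929.7 at P21 over all 8 genes listed. Slc1a2 had dim medians at P3 (6.9) and P8 (6.65), as did Gjb6 at P3 (7.1). The mean of the 8 differed by 0.32 between P21 and P3 (exact permutation p = 0.0476, adjusted p = 0.157). Single markers moved both ways without overlap. Gjb6 (0.7 to 17.3 at P3, 186.6 to 294.2 at P21) and Slc1a2 rose. Slc1a3 (1238.0 to 2283.9 at P3, 297.8 to 614.4 at P21) and Aldh1l1 fell. The part of the inhibitory, oligodendrocyte, astrocyte, granule cell, unipolar brush cell and Purkinje or cartwheel markers and of RNA length in the changes of Pvalb, Calb1 and Calb2 was not tested.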

How the data were processed

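Rat arrays measured amplified RNA of microdissected cells, with 1 probe set value per array. The authors deposited linear intensities. GCRMA is named in the submitters' processing notes without a version or a role. What made the linear values is not given in those notes. On each array the mean without the lowest and highest 2% of probe sets was 100.0, so arrays were already scaled and no normalization was added.

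Of 31099 probe sets 57 are controls, 20826 have 1 gene by the platform annotation, 436 have several and 9837 are unnamed here. Symbols were updated through rat RefSeq (assembly GRCr8), 20758 by Entrez identifier and 2 by accession, with 66 kept. Among several probe sets of 1 gene the one with the highest mean stood for it, and 11834 of 14217 genes passed log2 4 in at least 5 of 15 arrays. Log2(intensity + 1) was fitted by lmFit and eBayes of limma 3.58.1, with all 3 ages in 1 fit (R 4.3.3). Adjusted p is Benjamini-Hochberg over all genes tested and calls are under 0.05. Adding 1 before the log makes changes of dim genes look smaller. Fits were tested on simulated data. Pairs of genes, single genes and array measures had exact two-sided permutation tests that went through every split of the arrays (Python 3.11.15).

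The members, lists and settings were chosen with earlier results of these data known, including that P8 replicates 5 to 9 stand apart. Named list genes are the called genes with the smallest p per comparison, 6 from the EF-hand list and 2 from each other list, plus others named from a count after their values were seen. The labels call the samples biological replicates, the design text counts 1 animal per sample, and neither gives a litter or batch. The number of arrays limits the precision. Promoter sequence is from RefSeq, and of the 3 genes 1 matched that table.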

Additional observations from a re-analysis of the deposited data

How the results depend on the processing

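The direction of each of the 9 changes of Pvalb, Calb1 and Calb2 was the same in all 25 alternatives run for each. Several of these leave the difference itself unchanged and so could not turn its direction. They are no filter, every probe set kept, only the ages compared, the exact test and the loss of an array of the third age. Use of all 20 arrays likewise leaves the changes from P3 to P21 unchanged. The rise of Pvalb from P3 to P21, of Calb1 from P3 to P8 and of Calb2 to P21 from both earlier ages also kept their call in all 25 alternatives. Over all 20 arrays 4 calls ended: Pvalb from P3 to P8 (1.60), Calb1 between P8 and P21 (-0.24) and between P3 and P21 (1.70), and Calb2 from P3 to P8 (0.21). Pvalb from P3 to P8 did not pass with no filter on dim values (2.83, adjusted p = 0.0555), with only these ages fitted (adjusted p = 0.0958), by the exact permutation test or with the replicate number as a block (3.20, adjusted p = 0.0646). Calb1 from P8 to P21 did not pass with no filter (-1.89, adjusted p = 0.0557), with only these ages (adjusted p = 0.131), with every probe set kept (adjusted p = 0.0508), with array weights (-1.12, adjusted p = 0.265) or by the exact test. Array weights also ended the call of Pvalb from P8 to P21 (2.27, adjusted p = 0.100). A pseudocount of 16 made Calb1 minus Calb2 pass from P3 to P21 (-1.55, adjusted p = 0.0234). The cause was not tested.

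Leaving out 1 array at a time, the changes ran from 1.98 to 3.65 (Pvalb, P3 to P8), 2.63 to 4.30 (Pvalb, P8 to P21), -2.42 to -1.46 (Calb1, P8 to P21) and 1.38 to 2.13 (Calb1, P3 to P21). Those of pairs ran from -1.86 to 0.36 (Pvalb minus Calb1, P3 to P8), 4.22 to 6.44 (Pvalb minus Calb1, P8 to P21), -3.70 to -2.72 (Calb1 minus Calb2, P8 to P21) and -1.70 to -0.72 (Calb1 minus Calb2, P3 to P21). Same-numbered arrays of different ages shared only a number: their deviations correlated at -0.06 to 0.05, and 5 of 15 arrays correlated best with their own number. The replicate block took the calls over all genes from P3 to P8 to 665 higher and 502 lower, against 1103 and 947 without it, and ended no other call of the 3 genes. Over 20 arrays the EF-hand list had 0 genes higher and 4 lower between P3 and P21. The other lists had 0 and 2 of 14 (secretory pathway) and 4 and 1 of 19 (pumps, exchangers and uptake). Of all genes in that fit 7.36% were called higher and 7.83% lower. Dim signals limit Pvalb at P3, where 3 of 6 arrays lay at or below log2 4.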
